A study of Mus musculus with 6 samples.

Results

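The expression of 9 genes of zinc buffering and transport was examined in hearts of male C57BL/6 mice: the metallothioneins Mt1, Mt2, Mt3 and Mt4, the metal sensor Mtf1, the zinc exporters Slc30a1 and Slc30a2, and the zinc importers Slc39a10 and Slc39a14. The genes were chosen by name, with earlier results of the same comparison known, and every probe of the array annotated to one of them was taken. This gave 11 of the 55681 non-control probes, and 9 of the 36163 gene names on the array. Starting at an age of 4 weeks, the mice received standard chow (normal diet, ND) or a high fat diet with 60% of its kcal from fat (HFD), and hearts were collected after 4 months, 3 from each group. Heart RNA was labelled with a single dye (Cy3) and hybridised to Agilent arrays, 1 heart to an array. Values are levels, unless called a difference or deviation: the log2 of a probe's background-subtracted intensity relative to the 75th percentile of its array, so that 0 is the brightness of that percentile and 1 unit is a doubling. Brightness depends on the probe, so levels are compared between hearts and not between genes. Litter and cage are not given.

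Metallothioneins are small cysteine-rich proteins that bind zinc and copper and buffer the free metal in a cell. Their genes are switched on when the zinc-sensing transcription factor MTF1 binds metal response elements in their promoters, and glucocorticoids and inflammatory cytokines raise them as well. Zinc leaves the cytosol through the ZnT transporters (Slc30a genes) and enters it through the ZIP transporters (Slc39a genes). In the heart, metallothioneins are best known as scavengers of metal and of reactive oxygen.

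The samples carried a heart profile: all 7 cardiomyocyte markers were well above background on every array. Heart tissue was measured in bulk, so fewer cells of a type and less RNA per cell cannot be told apart. HFD 2 stood apart at atrial and adipocyte genes, and HFD 1 lay mostly at the other end. In HFD 2, the 4 atrial genes tested were lowest of all 6 hearts (Myl7, the atrial light chain, had a level of -1.43 against 2.67 to 6.48 elsewhere, and Sln, the atrial calcium pump regulator sarcolipin, -2.14 against 3.43 to 7.45), as were 4 of the 5 adipocyte genes tested, among them Adipoq (-4.01 against -2.46 to -0.37) and Cfd (-2.65 against 0.80 to 2.39). The remaining adipocyte gene, Cidea, went the other way. It was highest in HFD 2 (5.94), and higher in HFD without overlap by 0.33 (SE 0.09). The summed level of the atrial genes on the linear scale, relative to the 75th percentile, was 198 to 982 in ND and 56.2 to 1150 in HFD hearts. That of the adipocyte genes, carried by Cidea, was 48.8 to 50.7 in ND and 57.9 to 61.7 in HFD hearts. The ND hearts differed as well, with Myl7 at 2.67, 4.30 and 5.94, and at Nppa ND 3 (8.86) was close to HFD 1 (8.87). HFD 1 was the highest of all 6 hearts at the 4 atrial genes tested and at Adipoq, Plin1 and Retn, but not at Cfd or Cidea. Its intensities of Ucp1 (356) and Bmp10 (80.8) were above those of all other hearts (3.6 to 4.4 and 3.7 to 5.3). HFD 2 gave the highest HFD level at 8 of the 10 member probes tested, against 48.7% of all probes. The differences and correlations of the members are given with and without HFD 2. Leaving it out turned the direction of none of the differences given for other zinc, copper, iron, glucocorticoid and acute-phase genes. The part of atrial or adipose content in these results was not tested. HFD 1 and HFD 2 lay in slide row 1, and the other 4 arrays in row 2.

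MTF1 binds metal response elements, so their core sequence was looked for near the starts of the member genes. RefSeq promoter windows (GRCm38.p6, 250 bases before to 50 after the annotated start) were found for 8 of the 9 genes. They were searched on both strands for the metal response element core, TGCGCNC or TGCACNC, counting overlapping matches. Of all 32851 windows in that table, 25.7% held a match, 7.11% held 2 or more, 1.97% held 3 or more and 0.518% held 4 or more. Mt2 had 4 matches, Mt1 had 3, Slc30a1 and Slc30a2 had 2 each, Mt3 and Mt4 had 1 each, and Mtf1 and both windows of Slc39a10 had 0. A match is a string of letters and not a measured binding site. For Mt1, 2 of the 3 matches lie after the annotated start, and a window set on another start would cover other bases and could give another count. The sequences of Mt1, Mt2 and Slc30a1 are shown because these are the widely expressed metallothioneins and the only exporter that was compared with Mt1 between hearts. Each is the 250 bases before the start, 5′ to 3′ on the strand of the gene, with core matches of either strand in capitals. One further match each of Mt2 and Slc30a1 falls after the start and is not shown.
Mt1 (chr8:94178839-94179088, + strand): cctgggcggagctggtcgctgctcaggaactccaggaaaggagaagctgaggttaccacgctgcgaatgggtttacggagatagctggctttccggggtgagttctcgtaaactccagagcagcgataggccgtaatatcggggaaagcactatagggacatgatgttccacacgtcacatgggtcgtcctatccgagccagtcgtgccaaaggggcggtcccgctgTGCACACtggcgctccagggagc
Mt2 (chr8:94172368-94172617, + strand): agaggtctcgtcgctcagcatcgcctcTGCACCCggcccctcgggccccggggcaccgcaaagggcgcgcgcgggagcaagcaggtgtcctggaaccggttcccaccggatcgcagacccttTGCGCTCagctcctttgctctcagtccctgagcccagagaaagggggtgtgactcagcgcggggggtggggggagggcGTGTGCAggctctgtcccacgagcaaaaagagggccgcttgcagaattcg
Slc30a1 (chr1:191906531-191906780, + strand): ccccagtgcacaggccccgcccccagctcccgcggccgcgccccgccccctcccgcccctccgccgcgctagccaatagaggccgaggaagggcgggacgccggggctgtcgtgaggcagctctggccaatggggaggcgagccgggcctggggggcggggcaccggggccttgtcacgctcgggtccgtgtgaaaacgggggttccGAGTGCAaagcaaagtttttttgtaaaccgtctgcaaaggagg
Mt1, the stretch after the annotated start that spans its other matches (chr8:94179091-94179115, + strand): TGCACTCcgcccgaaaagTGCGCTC

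Metallothionein, sensor and transporter transcripts overlapped between ND and HFD hearts at every probe. Of the 10 member probes tested, 3 were higher (Mt4, Slc30a1 and Slc39a10) and 7 lower in HFD on average. None passed the Benjamini-Hochberg adjustment in limma, where 0.0145% of all 27590 probes tested did (4 probes). None reached an unadjusted p below 0.05 in limma, where 11.9% of all probes did, and none separated the diets without overlap, where 19.0% did. The members were taken up with this comparison known, so these counts describe them and carry no test. The median difference over all probes tested was -0.01. The HFD SD was larger than the ND SD at 8 of the 10 probes, against 61.9% of all probes tested. HFD 2 was the highest of the HFD hearts at 8 of the 10, against 48.7% of all probes, and the lowest at 1, against 24.3%.

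Mt1 and Mt2 encode the metallothioneins found in most tissues. Mt1 (A_66_P111660) was at 8.30, 8.36 and 8.28 (ND) against 7.88, 8.35 and 8.02 (HFD). The ND hearts lay close together, HFD 1 and HFD 3 lay below all of them, and HFD 2 lay among them. The intensities behind these levels, 121541 to 158645, were below saturation (778658). The means were 8.31 ± 0.04 (SD, n = 3) for ND and 8.08 ± 0.24 (SD, n = 3) for HFD, a difference of -0.23 (SE 0.13), which corresponds to 85.4% of the ND level. Without HFD 2 the difference was -0.36, and without HFD 1 it was -0.13. It also depended on the scaling, and was -0.14 with quantile normalization, with normexp background correction and in the authors' log2 table.

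Mt2 (A_51_P246317), the neighbour of Mt1, varied more than any other well-detected member. It was at 6.94, 6.92 and 6.42 (ND) against 6.32, 7.29 and 5.90 (HFD), so that an HFD heart was the highest and another the lowest of the 6. The difference between the means was -0.26 (SE 0.37), smaller than its error, with SDs of 0.29 (ND, n = 3) and 0.71 (HFD, n = 3). With 1 heart left out it ran from -0.65 (without HFD 2) to 0.05 (without HFD 3). Within slide row 2 alone, where HFD 3 is the only HFD heart, it was -0.86.

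Mt3, known from the brain, was dim but well above background on all arrays. Its probe (A_52_P320971) was at -1.14, -1.04 and -0.92 (ND) against -0.92, -1.45 and -1.23 (HFD). HFD 2, the highest HFD heart for Mt1 and Mt2, was the lowest of all hearts here, and HFD 1 was the highest. The mean difference was -0.16 (SE 0.15), which became -0.04 without HFD 2, -0.30 without HFD 1 and -0.11 without ND 3.

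Mt4, known from stratified epithelia, was near the limit of detection, with intensities of 18.8 to 51.1. It was well above background in 2 of the 3 ND and all 3 HFD hearts. Levels were -4.70, -4.12 and -3.85 (ND) against -3.90, -3.15 and -3.88 (HFD), and the groups overlapped. The difference of 0.58 (SE 0.29) was 0.33 without HFD 2, 0.34 without ND 1 and 0.21 with normexp background correction. The probe met the filter on dim probes only through the HFD arrays, where it was higher, so its difference carries no weight.

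In the files' mm9 coordinates the 4 metallothionein probes lie in the order Mt4, Mt3, Mt2, Mt1 on the plus strand of chromosome 8, within 42.07 kb (96662155 to 96704224). The longest run of bases shared by any 2 of these 60-base probes was 8, so each probe is largely distinct in sequence. The Mt4 probe spans 539 genomic bases and therefore crosses an intron, and the other 3 lie in single blocks of 60 bases.

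**Figure D1:**
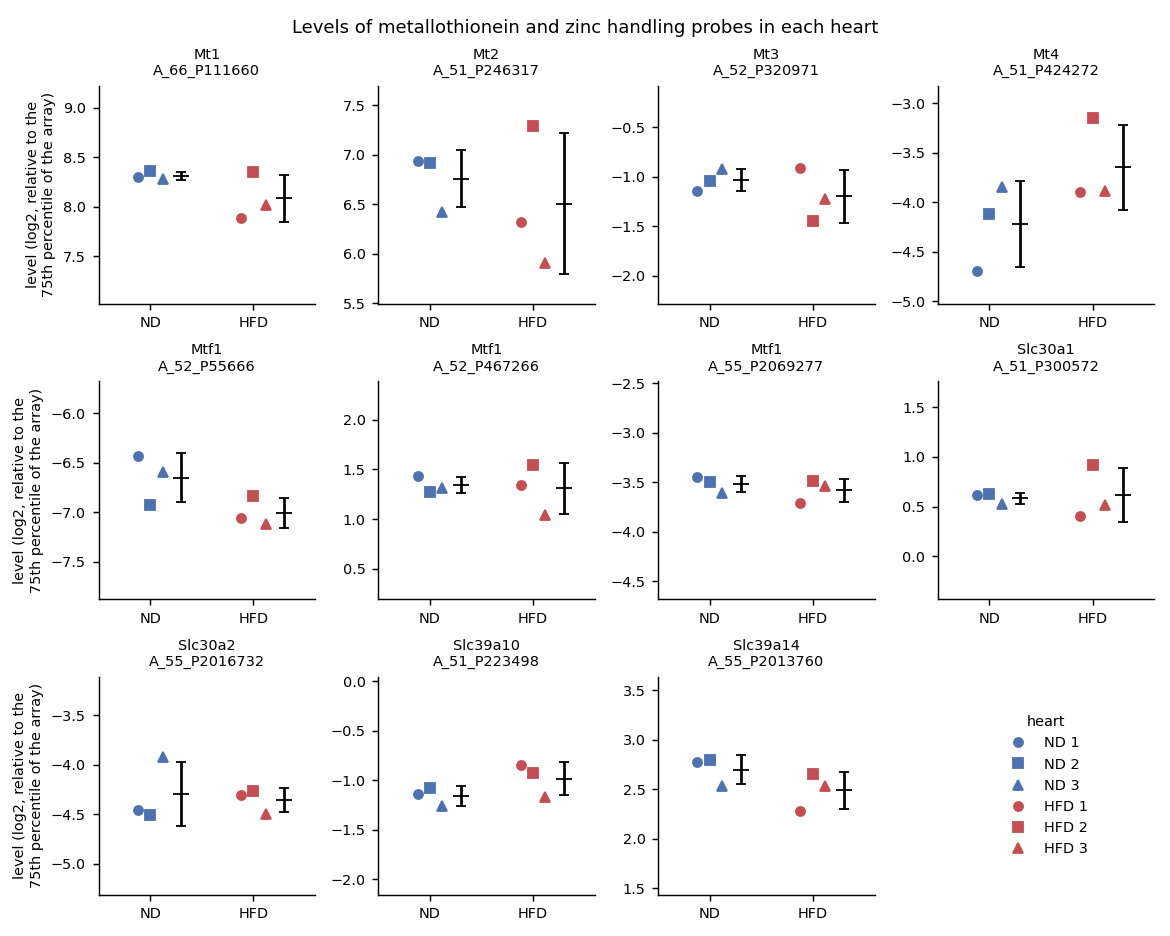
Level of each of the 11 member probes in the 6 hearts (log2, relative to the 75th percentile of the array); blue points are ND, red points HFD, the shape gives the replicate number, and the black bar is the group mean ± SD (n = 3). Each panel spans the same 2.2 log2 units, and ND and HFD overlap in every panel. HFD 2 (red square) tops the HFD group in every panel but those of Mt3 and Slc39a10, and is the lowest heart at Mt3.

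Mtf1 encodes the zinc-finger factor that senses zinc and drives metallothionein and Slc30a1 transcription, and it had 3 probes. The brightest, A_52_P467266, was at 1.43, 1.28 and 1.31 (ND) against 1.35, 1.54 and 1.04 (HFD). The HFD hearts lay on both sides of the ND hearts, and the difference was -0.03 (SE 0.14). Its direction rested on single hearts, with -0.15 without HFD 2, 0.10 without HFD 3 and 0.02 without ND 1. A_55_P2069277 was dim, with levels of -3.45 to -3.61 in ND and -3.49 to -3.71 in HFD, and a difference of -0.06 (SE 0.09) that was -0.10 without HFD 2 or ND 3, -0.02 without ND 1 and 0.01 without HFD 1. In none of the 6 hearts was the remaining probe, A_52_P55666, well above background (intensities of 3.9 to 5.6), and it was not tested.

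The exporter Slc30a1 (ZnT1) sits in the plasma membrane and sends zinc out of the cell. Its levels were 0.61, 0.62 and 0.52 (ND) against 0.41, 0.92 and 0.51 (HFD). HFD 2 was above every other heart and HFD 1 below, while the means differed by 0.03 (SE 0.14). Leaving out HFD 2 turned this to -0.12, and leaving out ND 3, HFD 1 or HFD 3 gave -0.0026, 0.13 and 0.08. Slc30a2 (ZnT2), an exporter into vesicles known from secretory cells, was close to background, with levels of -4.50 to -3.92 in ND and -4.49 to -4.27 in HFD hearts. It was well above background in 2 ND and 3 HFD hearts, and its difference was -0.06 (SE 0.17), which ran from -0.17 (without ND 2) to 0.12 (without ND 3) with 1 heart left out, and was -0.11 without HFD 2.

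The importer Slc39a14 (ZIP14), a carrier of zinc and iron that cytokines induce in the liver, was at 2.77, 2.79 and 2.53 (ND) against 2.28, 2.65 and 2.53 (HFD). As for Mt1, HFD 1 was the lowest heart, and the difference was -0.21 (SE 0.13). Without HFD 2 it was -0.29, and without HFD 1 it was -0.11. Slc39a10 (ZIP10), a plasma membrane importer, ran the other way. Its levels were -1.14, -1.07 and -1.26 (ND) against -0.85, -0.93 and -1.17 (HFD), a difference of 0.18 (SE 0.11). HFD 1 and HFD 2 were above all ND hearts and HFD 3 was not. The difference was 0.15 without HFD 2, 0.11 without HFD 1 and 0.27 without HFD 3, and within slide row 2 it was -0.01.

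The other zinc transporters of the mouse were represented by 24 probes for 20 genes, of which 17 probes for 14 genes were bright enough to test. None passed the adjustment in limma and none reached an unadjusted p below 0.05. Taking the brightest probe per gene, 4 of 5 exporters were higher (median difference 0.02) and 5 of 9 importers lower (median -0.03). At 3 of the 17 probes the HFD hearts lay below all ND hearts, a share close to the 19.0% of all probes tested that did not overlap in either direction, and nothing is read from it. Slc30a6 (ZnT6), which loads zinc into the Golgi with Slc30a5, differed by -0.15 (SE 0.08, limma adjusted p = 0.548), and by -0.09 without ND 1. Slc39a3 (ZIP3), a plasma membrane importer, differed by -0.12 (SE 0.07, limma adjusted p = 0.578), and by -0.04 within slide row 2. One of the 3 probes of Slc30a7 (ZnT7, A_55_P2207186) differed by -0.42 (SE 0.18, limma adjusted p = 0.455), while its brightest probe differed by 0.05 (SE 0.08) and the remaining one by -0.15 (SE 0.17). The value of A_55_P2207186 was -0.21 without ND 1 and with normexp background correction. Slc39a8 (ZIP8), the closest relative of Slc39a14, varied most between hearts among these 17 probes, from -3.67 in HFD 2 to -1.77 in HFD 1.

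**Figure D2:**
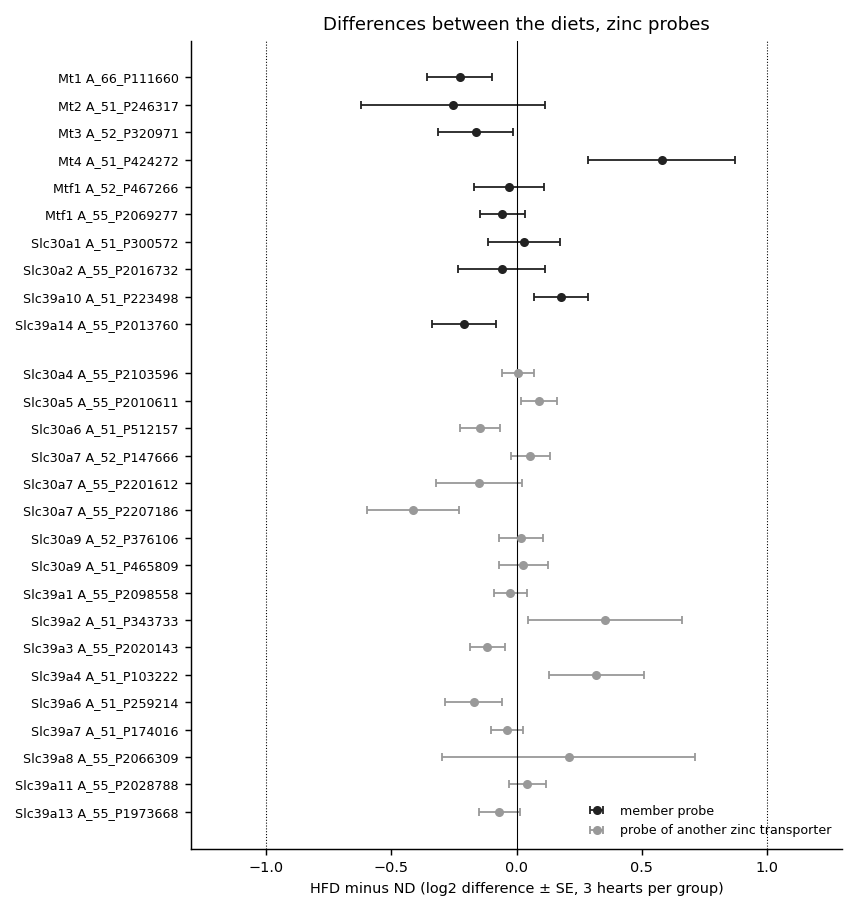
Difference HFD minus ND for the 10 member probes tested (black) and the 17 probes of other zinc transporters tested (grey), on the log2 scale with the SE of the limma fit (n = 3 hearts per group); dotted lines mark a 2-fold change. All points lie within a 2-fold change; the dim Mt4 probe, at 0.58, met the filter on dim probes only through the HFD arrays.

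Whether the zinc genes moved with Mt1 from heart to heart was tested on the deviation of each heart from the mean of its own diet. The difference between the diet means does not use these deviations, but its SE and p-value and the overlap of the diets do. The test is therefore not wholly apart from the earlier results known when the genes were chosen. Besides Mt1, 7 member probes were well above background on all arrays (7 relations, exact two-sided permutation test over the 36 rearrangements within diets, smallest possible p 0.0278). The Mt1 deviations were -0.01, 0.05 and -0.03 (ND) against -0.20, 0.27 and -0.06 (HFD), so most of the spread came from HFD 1 and HFD 2. Over all 25923 probes well above background on every array, the median r with Mt1 was 0.31, and 5.24% reached p below 0.05, as did 1 of the 7 member probes.

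Slc30a1 followed Mt1 most closely. Its deviations were 0.03, 0.04 and -0.06 (ND) against -0.21, 0.31 and -0.10 (HFD), in the same order within each diet as those of Mt1, and r was 0.99 (exact permutation p = 0.0278, adjusted p = 0.194). Of the 25923 probes, 0.305% had a higher r. Without HFD 2, r was 0.88. Over the 6 hearts with diet left in, Pearson's r was 0.71 and Spearman's rho 0.94. These values draw on the diet differences with which the genes were chosen, so they are a description with no test. Without the 2 hearts farthest from the median of Mt1, Pearson's r was 0.63.

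Slc39a14 had a within-diet r of 0.79 (exact permutation p = 0.0833, adjusted p = 0.292), which 16.0% of all probes exceeded. Without HFD 2 it was 0.85, and without HFD 1 it was 0.54. Its Pearson's r over the 6 hearts, again as a description, was 0.87 and Spearman's rho 0.89, and r was 0.54 without the 2 hearts farthest from the median. Mt2 had a within-diet r of 0.80 (exact permutation p = 0.278, adjusted p = 0.389), which 14.4% of probes exceeded. That relation rested on HFD 2, without which r was -0.20. For Mtf1, r was 0.52 at the brightest probe (exact permutation p = 0.611) and 0.75 at A_55_P2069277 (exact permutation p = 0.278). Without HFD 2 these were -0.87 and 0.77. Mt3 ran against Mt1 (r = -0.88, exact permutation p = 0.194, adjusted p = 0.389), and -0.78 without HFD 2. Slc39a10 showed little relation (r = 0.07, exact permutation p = 0.917), although r was 0.90 without HFD 1 and -0.48 without HFD 2. Over the 6 hearts with diet left in, these 5 probes had Pearson's r of -0.35 to 0.77 and Spearman's rho of -0.43 to 0.77. None of the 7 relations passed the adjustment, but no single relation could have passed it. At the smallest possible exact permutation p, 0.0278, Slc30a1 had an adjusted p of 0.194, so nothing is read from this outcome.

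**Figure D3:**
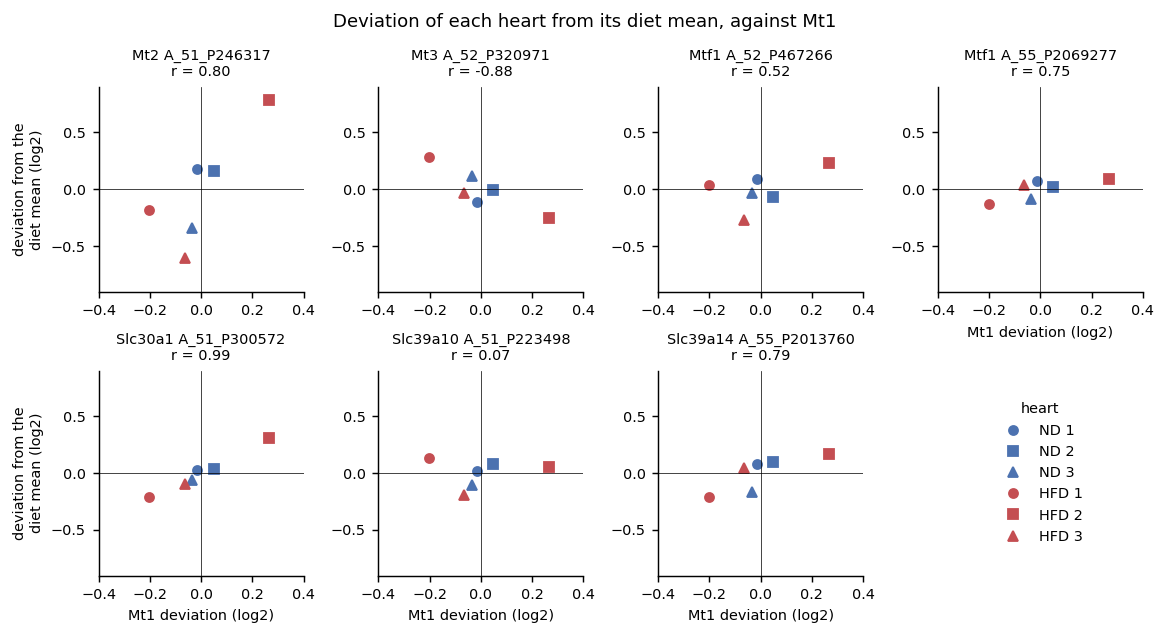
Deviation of each heart from its diet mean (log2) for 7 member probes, against the same deviation of Mt1; blue is ND, red HFD, the shape gives the replicate number, and r is the within-diet Pearson correlation (n = 6 hearts). Slc30a1 lies closest to a line (r = 0.99), and in the Mt2 panel HFD 2 (red square) is the single point at the upper right.

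Among all probes well above background on every array, the 5 with the highest Pearson's r with Mt1 over the 6 hearts were those of Emilin3, an extracellular matrix glycoprotein (r = 0.997), Csnk2a1, the catalytic subunit of casein kinase 2 (r = 0.994), Brd7, a bromodomain protein of a chromatin remodeller (r = 0.992), and 2 transcripts that the array names only by ID, ENSMUST00000103743 (r = 0.998) and ENSMUST00000105338 (r = 0.993). These were picked as the top of 25923 values, so the r values are a description. No member was among them. Emilin3 was at -0.85, -0.65 and -0.85 (ND) against -1.78, -0.72 and -1.39 (HFD), the same order of HFD hearts as for Mt1 with wider steps.

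Genes of copper and iron handling, and of the hormone and cytokine pathways known to induce metallothioneins, were read from lists with 1 probe per gene. The genes named stand against the shares over all probes tested. Of those, 11.9% had an unadjusted p below 0.05 in limma and 19.0% did not overlap in either direction. Copper shares the metal-binding sites of metallothioneins. Of 8 copper genes tested, 6 were lower, and none passed the adjustment. Slc31a2 (Ctr2), a copper transporter of endosomes and lysosomes, was at 2.54, 2.50 and 2.43 (ND) against 1.96, 1.95 and 2.14 (HFD), with all HFD hearts below all ND hearts, a difference of -0.47 (SE 0.08, limma adjusted p = 0.151). Its other probe was also lower without overlap, at 79.6% of ND. Atox1, the copper chaperone of the secretory pathway, differed by -0.14 (SE 0.07, limma adjusted p = 0.504) without overlap. Its difference was -0.09 with quantile normalization and in the authors' log2 table, and -0.06 with normexp background correction. Over the list the median difference was -0.11.

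Of 8 iron and haem genes, 3 were higher and 5 lower (median -0.06). Slc40a1 (ferroportin), the iron exporter, was at 2.11, 2.12 and 2.37 (ND) against 2.29, 2.78 and 2.77 (HFD), a difference of 0.41 (SE 0.16, limma adjusted p = 0.410). The groups overlapped. Erythroid markers were lower in HFD at the same time: all 5 tested were lower without overlap, 4 of them at an unadjusted p below 0.05 in limma and none past the adjustment, and their summed linear level relative to the 75th percentile was 577 to 737 in ND and 367 to 514 in HFD hearts. Lower in HFD without overlap were also 1 of 5 fibroblast markers (Pdgfra, -0.30, SE 0.10) and 1 of 4 endothelial markers (Kdr, -0.26, SE 0.08). So were 2 of 5 macrophage markers (Lyz2, -0.36, SE 0.15, and Cd163, -1.10, SE 0.43). The Cd163 probe met the filter on dim probes only through the ND arrays, where it was higher, so its difference carries no weight. Cidea, 1 of the 5 adipocyte markers tested, was higher without overlap (0.33, SE 0.09), while 3 of the 5 were lower on average, with overlap. None of these passed the adjustment. These counts stand against 19.0% of all probes tested without overlap in either direction, and 11.9% at an unadjusted p below 0.05 in limma. Nothing is read from the fibroblast, endothelial and macrophage counts. The part of blood and other cell content in the values of the iron and haem list was not tested.

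Of 8 glucocorticoid-induced genes, 5 were higher and 3 lower (median 0.16), with opposite directions in the pair that reached an unadjusted p below 0.05 in limma. Dusp1, a phosphatase that switches off MAP kinases, was at 2.54, 2.62 and 2.30 (ND) against 2.97, 3.11 and 2.84 (HFD), higher without overlap by 0.48 (SE 0.12, limma adjusted p = 0.252). Zbtb16, a zinc-finger repressor, was at 4.93, 4.97 and 4.86 (ND) against 3.22, 4.45 and 4.33 (HFD), lower without overlap (difference of -0.92, SE 0.33, limma adjusted p = 0.368), with HFD 1 the lowest. It was -0.53 without HFD 1 and -0.59 with slide row as a block.

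Of 6 interleukin-6 and acute-phase genes tested, 2 were higher and 4 lower (median -0.04). Lcn2, lipocalin 2, an iron-siderophore binder of the acute phase, was at 1.20, 1.19 and 0.94 (ND) against 0.58, 0.66 and 0.48 (HFD). All HFD hearts were below all ND hearts, a difference of -0.54 (SE 0.10, limma adjusted p = 0.170). Socs3, the feedback inhibitor of interleukin-6 signalling, was looked at after its values were seen. It was at 2.79 in HFD 2 and between 0.90 and 1.53 in the other 5 hearts. No gene of these 4 lists passed the adjustment.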

How the data were processed

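RNA of 6 hearts (3 ND, 3 HFD) was hybridised to 6 one-colour Agilent mouse arrays (55681 non-control probes, all on 1 slide). The authors' deposited intensity values came from Agilent Feature Extraction (10.7 in the submitters' notes, 10.7.1.1 in the file headers), background-subtracted within each array and not normalized between arrays. The authors also deposited log2 values of the same arrays in a series table. Their making is not given in the sources used here, but each column matched a quantile normalization of its own array's log2 intensities to a median absolute difference of at most 0.00195, so its scale is log2 and its direction is settled. The table was used as an alternative. The array design supplies the gene names, and its probe positions refer to mm9.

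Outlier-flagged spots (127 to 190 per array) were left out, spots of a probe were averaged, and the log2 of each array's 75th percentile (intensities of 453 to 544) was subtracted. A probe was tested if all arrays of 1 or both groups showed it well above background. The two-sided comparison of HFD with ND used lmFit and eBayes of limma 3.58.1 (R 4.3.3), and p-values were adjusted by Benjamini-Hochberg over 27590 probes. On data simulated from these arrays, 89.5% of 200 probes changed 4-fold passed the adjustment among 27551, as did 15 unchanged probes. The differences of all member probes tested were within a 2-fold change, and changes of that size were not simulated. Promoters were read from RefSeq (GRCm38.p6) in Python 3.11.15, and figures were drawn with matplotlib 3.10.9.

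Each array had 49.2% to 53.0% of its probes well above background, no spot was saturated, and the number of arrays limits the precision. Members and gene lists were chosen with earlier results of these data known. Named are all member probes, the genes of the other zinc, copper, iron, glucocorticoid and acute-phase lists with an unadjusted p below 0.05 or no overlap (at most 6 a list, 1 probe per gene, the brightest), and the 5 probes most correlated with Mt1. Slc30a7 (A_55_P2207186), Slc39a8, Socs3 and the cell type markers given with values were named after their values were seen. The alternatives tried were quantile normalization, normexp background correction (offset 50), the authors' table, no filter on dim probes or a stricter one, another variance model, the methods' t-test, blocks for slide row and replicate number, and leaving out each heart.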

Additional observations from a re-analysis of the deposited data

How the results depend on the processing

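The Mt1 difference kept its direction under all 12 alternatives that give one, from -0.36 (without HFD 2) to -0.13 (without HFD 1). No member probe and no probe of the other zinc transporters passed the adjustment between diets under any of 16 alternatives. No member passed it for agreement with Mt1 under any of 4, but there no single relation could pass it. The number of probes past the adjustment over the whole array, 4 in the main setting, was 0 without a filter on dim probes, 0 with a replicate block, 0 with slide row as a block, 0 within slide row 2, 2 in the authors' log2 table, 60 with normexp background correction, 81 with an intensity trend and robust variances, 8 by the methods' t-test after the adjustment (3143 at an unadjusted p below 0.05), and 0 to 2 with 1 heart left out. The cause of these shifts was not tested. The replicate numbers do not pair the hearts (deviations of same-numbered hearts correlated at -0.15, 0.15 and 0.19). In this balanced design the block cannot change a difference, only its error. Slide row moved 3 of the 10 member differences by more than the pooled SD within the diets: Mt2 to -0.86 (a shift smaller than its HFD SD of 0.71), Mtf1 (A_52_P467266) to -0.30 and Slc39a10 to -0.01. With 4 arrays in row 2 and only HFD hearts in row 1, diet and row are partly confounded, and agreement with Mt1 could not be tested within a row. The within-diet r of Slc30a1 stayed between 0.88 and 0.996 (exact permutation p = 0.0833 with quantile normalization and 0.111 with normexp), and that of Slc39a14 between 0.54 and 0.90 (exact permutation p = 0.0278 with either). With a heart left out the smallest possible p is above 0.05. Dusp1, Slc40a1 and Zbtb16 lost an unadjusted p below 0.05 under 2, 7 and 5 of 16 alternatives, among them leaving out ND 1, ND 2, HFD 2 or HFD 3 for Slc40a1 (0.33 to 0.37) and leaving out any ND heart for Zbtb16 (-0.95 to -0.89). Mt4, Slc30a2 and the Mtf1 probe A_52_P55666 lie at or near background, which limits what their values can show.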
